A study of Mus musculus with 8 samples.

Results

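Expression of 10 MHC and antigen presentation genes was compared between WT and Th-POK KO animals in the mammary gland. The genes were chosen by name and role, with earlier results of these data known. They were the class I heavy chains H2-K1 and H2-D1, the class I light chain B2m, the peptide loading genes Tap1, Tap2 and Tapbp, the class II chains H2-Aa, H2-Ab1 and H2-Eb1, and the invariant chain Cd74. Probes were found for 9 of the 10, which were represented by 17 of 41174 probes and were among 18749 genes with a probe. H2-Eb1 was not analysed here because no probe accession matched it. Th-POK (gene Zbtb7b) is a transcription factor of CD4 T cells and of luminal mammary epithelium. The study asked what its loss does to the lactating gland. Glands were taken from females of C57/Bl6 background on lactation day 1, from 4 wild-type animals (WT) and 4 that lacked Th-POK (KO), and the RNA of each was labelled and hybridised to an array of its own. Both groups shared the strain, sex and stage, and no drug or other allele was named. The KO animals lacked Th-POK in T cells as well as in the gland, so these arrays do not separate the gland's own loss from that of the immune system. The study's transplants of epithelium between genotypes addressed this for lipid droplets, and not for the genes described here. The 4 arrays of a genotype are biological replicates. A p-value here sets the difference between the genotypes against the spread between such replicates.

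MHC class I molecules sit on nearly all nucleated cells and show peptides from inside the cell to CD8 T cells. Their heavy chain pairs with β2-microglobulin, while the Tap transporter carries peptides into the endoplasmic reticulum and tapasin (Tapbp) helps load them. MHC class II molecules are made mainly by dendritic cells, macrophages and B cells, show peptides from outside the cell to CD4 T cells, and are escorted by the invariant chain Cd74. Both classes are induced by interferon-γ and share a promoter module of S, X and Y boxes, which the coactivators Nlrc5 (class I) and Ciita (class II) use through RFX, CREB and NF-Y proteins. A whole gland holds epithelium, fat, vessels and leukocytes, so in all values that follow a smaller number of cells of a type and less RNA per cell cannot be told apart.

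The promoters are shown because the promoter module named above is common to both classes. Other regions of the genes were not compared. RefSeq promoter windows of mouse build GRCm38.p6, from 250 bases before to 50 after a start, were available for 7 members: H2-K1, H2-D1, B2m, Tap1, Tapbp, H2-Aa and H2-Eb1. In the class I enhancer stretch, capitals mark the motif GGGGATTCCCC and the interferon-type motif GAANNGAAA, which lies on the opposite strand. The H2-K1 stretch is at chr17:34000429-34000458 (minus strand) and that of H2-D1 at chr17:35262923-35262952 (plus strand).
H2-K1 enhancer: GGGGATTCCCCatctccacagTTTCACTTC
H2-D1 enhancer: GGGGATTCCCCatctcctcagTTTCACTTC
The pair is identical at 29 of 30 bases. GGGGATTCCCC was cut from the H2-K1 window itself, and both stretches were found by their motifs. The H2-K1 hits and the fixed bases of the motifs therefore match by selection. Searched on both strands, GGGGATTCCCC was present in 0.0304% of 32851 windows and GAANNGAAA in 7.52%, and among the 7 members both were found in H2-K1 and H2-D1 alone. A related interferon-type form, GAAA and GAAA with 2 bases between, was found in B2m alone of the 7, and in 3.44% of the windows.

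Downstream of it in the class I genes lies a stretch that begins with TGACG, the core of an X2 box, and ends with ATTGG, a Y box read on the opposite strand to CCAAT. It is at chr17:34000359-34000388 (minus strand) in H2-K1, chr17:35262993-35263022 (plus strand) in H2-D1 and chr2:122147609-122147638 (plus strand) in B2m, and capitals mark both boxes.
H2-K1 X2 to Y: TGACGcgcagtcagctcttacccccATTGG
H2-D1 X2 to Y: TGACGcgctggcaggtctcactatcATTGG
B2m X2 to Y: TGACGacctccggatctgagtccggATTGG
The boxes match by the way the stretches were found. Of the 20 bases between them H2-K1 shares 13 with H2-D1 and 3 with B2m. TGACG and ATTGG with 20 bases between them were found in 0.0944% of the windows. With 19 to 22 bases between them they were found in 0.237% of the windows and in 4 of the 7 members, the fourth being H2-Aa, with 21 bases. In H2-Aa the X2 box is part of TGACGTCA (chr17:34287890-34287897, minus strand) and the Y box of CTGATTGG (chr17:34287867-34287874). Alone, TGACG was in 20.8% and ATTGG in 37.4% of all windows. These matches describe the letters of the windows and say nothing of binding in the gland.

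The arrays were of like quality in both genotypes, with 66.9 to 75.3% of probes well above background in WT and 66.8 to 71.0% in KO and no saturated spot. The 4 WT arrays were on one slide and the 4 KO arrays on another, so slide and genotype cannot be told apart in any comparison here. Zbtb7b, given first as a check of the labels, had log2 signals of 9.90, 10.42, 10.13 and 10.23 in WT and was not well above background on any KO array, where it was at least 81.5-fold lower (limma, adjusted p = 5.71e-09). Signals are Agilent processed signals on a log2 scale after quantile normalization, so they can be compared between arrays for a gene and not between genes. Of all 14137 genes tested, 16.5% differed between the genotypes at an adjusted p under 0.05, 8.96% lower in KO and 7.53% higher.

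All 9 antigen presentation genes had a lower mean signal in KO glands than in WT glands, with differences between −0.16 (Tap2) and −0.79 (H2-K1) on the log2 scale and a median of −0.45. None of the 9 passed the test (limma, adjusted p from 0.0802 to 0.713), against the 16.5% of all genes. At an unadjusted p under 0.05 there were 2 of 9, H2-K1 and Tapbp, against 36.3% of all genes. The methods' t-test called 0 after Benjamini-Hochberg adjustment and 1 before. Over all genes the median difference was −0.02 and 52.4% were lower in KO. The members were chosen with earlier results of these data known, so their shared direction is a description and not a test. The WT and KO arrays overlapped for each of the 9 genes, whereas for 12.9% of all genes every WT array lay above every KO array and for 11.1% every KO array above every WT array. No member differed by 2-fold or more, as 7.08% of all genes did. The median of the 9 differences lay between −0.25 and −0.53 when any single array was left out, and was −0.25 without WT 3.

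**Figure D1:**
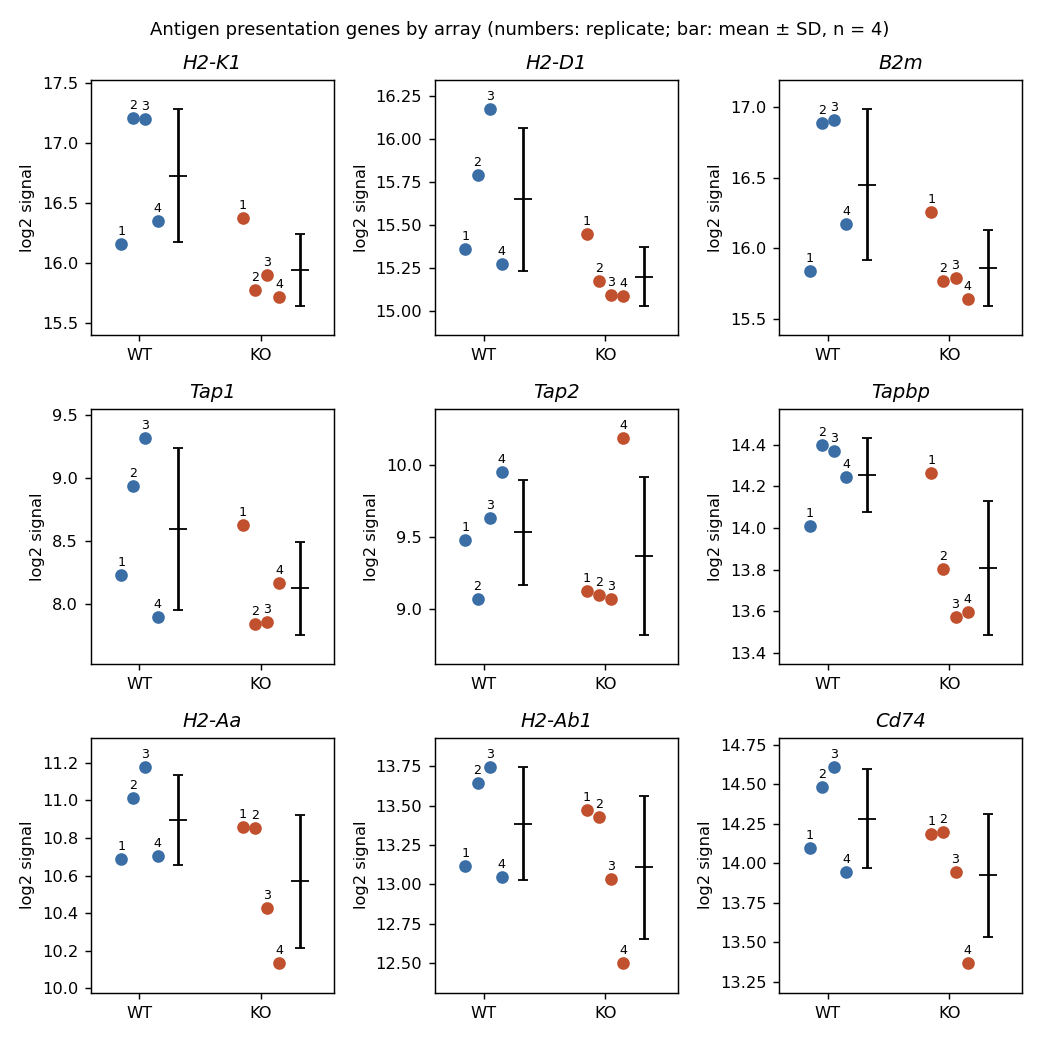
Log2 signal (vertical axis, a separate range for each gene) of the 9 genes on the 4 WT arrays (blue) and the 4 KO arrays (red), numbered by replicate, with the mean ± SD (n = 4) as a black bar. WT 2 and WT 3 are the highest points in 8 of the 9 panels, and the genotypes overlap in all 9.

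H2-K1 is a classical class I heavy chain, which holds the peptide. Its log2 signal was 16.16, 17.21, 17.20 and 16.35 on WT arrays 1 to 4, and 16.38, 15.78, 15.90 and 15.72 on KO arrays 1 to 4. WT 2 and WT 3 stood far above the other arrays, while WT 1 lay below KO 1. The difference was −0.79 with an SE of 0.28 (95% interval −1.41 to −0.16), which missed the threshold (limma, adjusted p = 0.0802). H2-D1, the other classical heavy chain of this strain, read 15.36, 15.79, 16.18 and 15.27 in WT and 15.45, 15.18, 15.09 and 15.08 in KO. Here too WT 2 and WT 3 were highest, and KO 1 exceeded both WT 1 and WT 4. The difference was −0.45 with an SE of 0.20 (adjusted p = 0.149).

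B2m, the light chain common to all class I molecules, read 15.84, 16.89, 16.91 and 16.17 in WT and 16.25, 15.77, 15.79 and 15.64 in KO. It followed the heavy chains array by array, with WT 2 and WT 3 high and KO 1 above WT 1 and WT 4. The difference was −0.59 with an SE of 0.26 (adjusted p = 0.144). With WT 1 left out, H2-K1 and B2m passed the threshold, at −0.98 (adjusted p = 0.0364) and −0.79 (adjusted p = 0.0454). Averaged after centring each gene on its own mean, the 3 class I chains stood 0.66 and 0.79 above that mean on WT 2 and WT 3, 0.19 and 0.04 below it on WT 1 and WT 4, 0.05 above it on KO 1 and between 0.38 and 0.49 below it on the other KO arrays.

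The peptide loading genes did not follow a common pattern. Tap1, a subunit of the peptide transporter, read 8.23, 8.93, 9.32 and 7.90 in WT and 8.63, 7.85, 7.86 and 8.17 in KO, a difference of −0.47 with an SE of 0.32 (adjusted p = 0.318). Its order over the arrays was close to that of the class I chains, and WT 4 was nearly as low as the lowest KO array. Tap2, the other subunit of the transporter, read 9.48, 9.07, 9.63 and 9.95 in WT and 9.13, 9.10, 9.07 and 10.18 in KO, a difference of −0.16 with an SE of 0.29 (adjusted p = 0.713). Tap2 was the only member in which WT 2 and WT 3 were not the highest 2 arrays, and its highest value was on KO 4. Without KO 4 the difference of Tap2 was −0.43 with an SE of 0.20 (limma, adjusted p = 0.152). From the mean of the class I chains Tap2 departed by 0.66 on the log2 scale as a root mean square over the 8 arrays, against 0.22 for Tap1.

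Tapbp encodes tapasin, which bridges the transporter and the class I molecule while it is loaded. It read 14.01, 14.40, 14.37 and 14.24 in WT and 14.26, 13.80, 13.57 and 13.60 in KO. KO arrays 2 to 4 were below every WT array, and KO 1 was above WT 1 and WT 4. The difference was −0.45 with an SE of 0.17 (limma, adjusted p = 0.102), and with KO 1 left out it was −0.60 (adjusted p = 0.0496).

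H2-Aa and H2-Ab1 encode the α and β chains of the class II molecule I-A. H2-Aa read 10.69, 11.01, 11.18 and 10.703 in WT and 10.86, 10.85, 10.43 and 10.13 in KO, a difference of −0.33 with an SE of 0.20 (adjusted p = 0.263). H2-Ab1 read 13.11, 13.64, 13.74 and 13.04 in WT and 13.47, 13.43, 13.03 and 12.50 in KO, a difference of −0.28 with an SE of 0.25 (adjusted p = 0.461). In both, KO 1 and KO 2 lay above WT 1 and WT 4, and KO 4 was the lowest array. Without KO 4 the difference of H2-Ab1 was −0.07. Cd74, whose product blocks the class II groove until the endosome is reached, read 14.10, 14.48, 14.61 and 13.94 in WT and 14.18, 14.20, 13.94 and 13.36 in KO, a difference of −0.36 with an SE of 0.22 (adjusted p = 0.277). Without KO 4 it was −0.17, and that of H2-Aa was −0.18.

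The class II genes were close to each other. Each of H2-Aa, H2-Ab1 and Cd74 differed from their common mean by 0.05 to 0.06 as a root mean square over the 8 arrays, and the class II mean differed from the class I mean by 0.27. The classes shared the high values of WT 2 and WT 3. These were 0.66 and 0.79 above the mean for class I and 0.35 and 0.48 for class II. The classes lay furthest apart on KO 2, where class I stood at −0.40 and class II at 0.13 relative to each gene's mean, and KO 4 was at −0.49 for class I and −0.70 for class II.

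**Figure D2:**
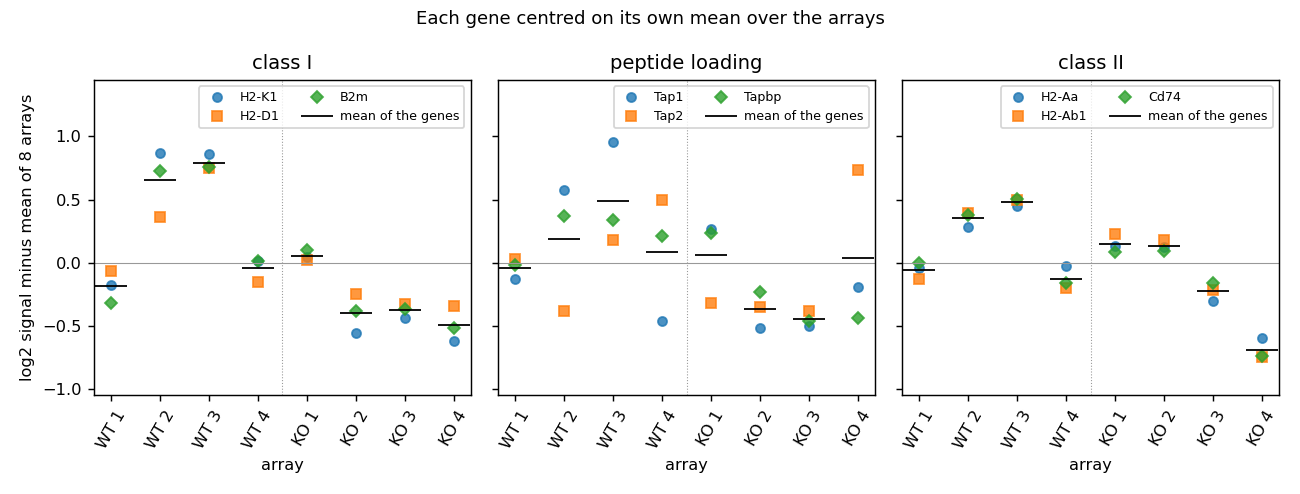
Log2 signal of each gene minus its own mean over the 8 arrays, for the class I chains, the peptide loading genes and the class II genes, with WT arrays to the left of the dotted line. Black bars are the mean of the 3 genes: class I reaches 0.66 and 0.79 on WT 2 and WT 3, class II is at −0.70 on KO 4, and the loading genes are scattered on KO 4, where Tap2 is highest.

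Within WT, WT 2 and WT 3 stood apart from WT 1 and WT 4. WT 2 and WT 3 were the highest 2 of the 8 arrays in 8 of 9 members, a ranking found in 10.8% of all genes tested. Arrays of the same replicate number deviated together over all genes, and were paired on that ground alone, since the labels name no pairs. By these pairs the difference of KO from WT was above 0 in pair 1 for 8 of 9 members, from 0.09 in Cd74 and H2-D1 to 0.42 in B2m. In pair 3 it was below 0 for all 9, from −0.56 in Tap2 to −1.46 in Tap1. Pair 2 was below 0 for 8 of 9, with Tap2 at 0.03, and pair 4 for 7 of 9, with Tap1 at 0.27 and Tap2 at 0.24. The members as a whole were thus lower in 3 of the 4 pairs and higher in the other.

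The tested probes of a gene gave the same sign, all read on the same 8 arrays. Of 17 member probes 16 were tested, and all 16 were lower in KO, against 49.1% of all probes. A probe of H2-D1 (A_51_P496996) was left out of the fit, since its spot on KO 4 was marked as an outlier by the scanner software. On the other arrays it read 14.62, 15.56, 15.71 and 14.83 in WT and 14.87, 14.40 and 14.39 in KO, with WT 2 and WT 3 highest as with the brightest H2-D1 probe. At an adjusted p under 0.05, 2 of 16 probes were lower in KO, against 7.17% of all probes.

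The called H2-K1 probe (A_52_P50496) read 12.56, 13.59, 13.76 and 13.15 in WT and 12.59, 11.95, 12.08 and 12.12 in KO, and fell by 1.07 on the log2 scale with an SE of 0.26 (limma, adjusted p = 0.0325). KO 1 and WT 1 differed by little, so the genotypes overlapped. The other H2-K1 probes were at −0.79 and −0.71. The called Tapbp probe (A_52_P684830) read 8.87, 9.25, 9.16 and 9.21 in WT and 8.79, 8.56, 8.44 and 8.68 in KO, with every WT array above every KO array as for 11.0% of all probes, and fell by 0.51 with an SE of 0.13 (adjusted p = 0.0346). The brightest Tapbp probe was at −0.45 without passing. With the replicate block 0 of 16 probes passed, and the count ran from 0 to 6 when single arrays were left out, being 0 without WT 2, WT 3, WT 4, KO 1, KO 2 or KO 3, 1 without KO 4 and 6 without WT 1.

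Of the H2-Ab1 probes the brightest was at −0.28, and the others were at −0.47 and −0.45. The probes of H2-Aa were at −0.33 and −0.18 and those of B2m at −0.59 and −0.60, none of them past the threshold.

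**Figure D3:**
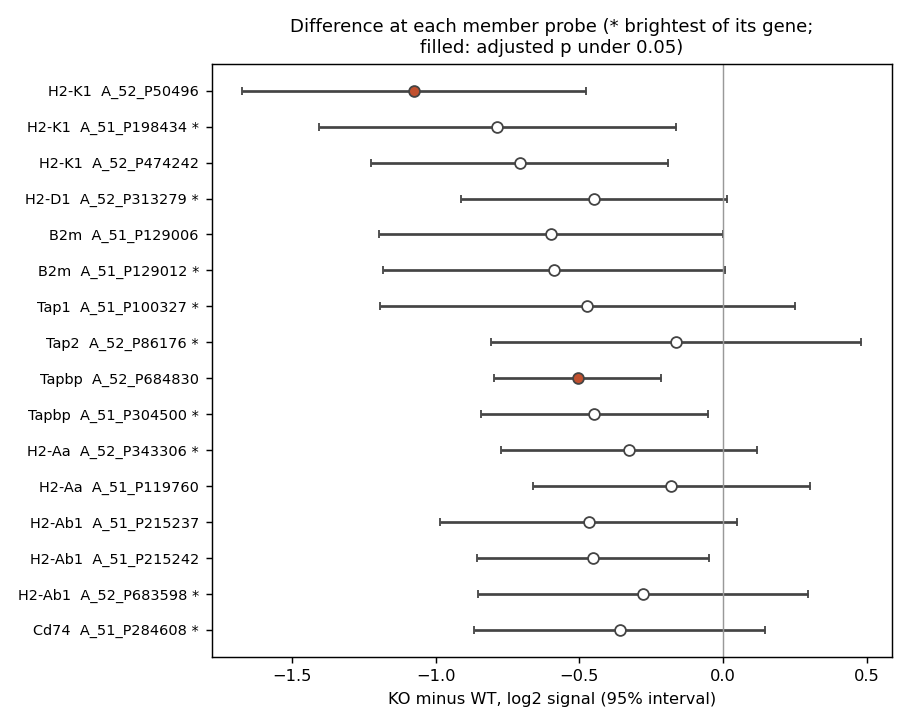
KO minus WT difference in log2 signal for the 16 member probes tested, with 95% intervals from limma (n = 4 arrays a genotype). All 16 points lie below 0, and 2 are filled, one of H2-K1 at −1.07 and one of Tapbp at −0.51, for an adjusted p under 0.05.

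Leukocyte markers moved with some of these values. The summed linear signal of 8 T cell markers was between 663 and 1861 on WT arrays and between 702 and 954 on KO arrays, and WT 2 (1660) and WT 3 (1861) were the highest. WT 2 and WT 3 were the top arrays in 7 of these 8 markers. The mean profile of the T cell markers departed from that of the class I chains by 0.19 as a root mean square over the 8 arrays and from that of class II by 0.30. Among them Cd3e, part of the T cell receptor complex, fell by 0.60 with an SE of 0.16 (limma, adjusted p = 0.0369). Cd3e was the marker of the 8 in which WT 2 and WT 3 were not the top arrays. Cd4, the coreceptor of helper T cells, fell by 0.43 with an SE of 0.12 (limma, adjusted p = 0.0403). The signal of Cd4 was low, from 4.26 to 4.97 over all arrays. The brightest markers Cd3d and Lck were at −0.33 and −0.30 without passing. The part of T cells in the values of the antigen presentation genes was not tested.

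Pan-leukocyte, macrophage and dendritic cell markers gave no called difference, by limma or by the methods' t-test. Of 5 pan-leukocyte markers 0 passed (0 at an unadjusted p under 0.05), with sums of 7151 to 12152 in WT and 5852 to 10690 in KO. Their mean profile was the closest of the 10 marker lists to class II, at 0.11, with Coro1a at −0.24 and Cd52 at −0.37. Of 9 macrophage markers tested 0 passed (0 at an unadjusted p under 0.05), with sums of 13144 to 17720 in WT and 11236 to 19425 in KO and the complement genes C1qa and C1qc at −0.05 and 0.07. Of 6 dendritic cell markers tested 0 passed (2 at an unadjusted p under 0.05), with sums of 1509 to 1954 in WT and 1225 to 1796 in KO and Itgax and Batf3 at −0.20 and −0.24. All 6 were lower in KO, with a median of −0.33. The 2 were Flt3 at −0.46 and Zbtb46 at −0.42, which fell outside the naming rule. Of the pan-leukocyte markers 4 of 5 were lower, and of the macrophage markers 3 of 9. The dendritic cell markers Clec9a and Cd209a and the B cell markers Pax5 and Blk were not well above background on any array.

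Among the 4 B cell markers tested 2 were lower and 2 higher, and 1 was called. Cd79b, a subunit of the B cell receptor complex, rose by 1.05 with an SE of 0.29 (adjusted p = 0.0403). The 4 summed to at most 542 on a WT array and to 543 to 953 on the KO arrays. Neutrophil granule genes were higher in KO, Camp at least 8.54-fold (adjusted p = 3e-04) and Ngp at least 7.11-fold (adjusted p = 0.0045), neither being well above background on any WT array. The 4 neutrophil markers tested summed to 66.6 to 94.4 in WT and 210 to 462 in KO, with Mpo at 0.24 and Csf3r at 0.08. Elane was not well above background on any array.

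All markers listed for luminal and basal epithelium, adipocytes and endothelium passed the filter on dim probes. The milk protein genes Csn2 and Wap were at 0.01 and 0.07, but both lie among the highest signals of the arrays, where quantile normalization sets a value by rank and Wap was tied at 18.48 on 3 KO arrays, so these differences say little. The luminal genes Krt18, Epcam and Cldn3 rose by 0.67, 0.52 and 1.11 (adjusted p = 0.0349, 0.0403 and 0.0255). Of 7 luminal markers 6 were higher in KO and 1 lower, Elf5, at −0.35 (limma, adjusted p = 0.107). Elf5 fell outside the naming rule. Luminal sums were 752467 to 819890 in WT and 839224 to 880352 in KO. Most of each sum is the signal of Csn2 and Wap, so the limit given for them holds for the sums as well. The adipocyte genes Plin1 and Cfd rose by 0.71 and 0.68 (adjusted p = 0.0403 and 0.0268) with Fabp4 at 0.29, and sums were 283492 to 399882 in WT and 400776 to 561899 in KO. Of 7 adipocyte markers 6 were higher in KO and 1 lower, Lep, at −0.73 (limma, adjusted p = 0.37). Lep too fell outside the naming rule. No basal (Krt5 −0.21, Acta2 0.07) or endothelial (Cdh5 0.01, Kdr −0.47) marker passed, with 1 of 6 and 1 of 5 at an unadjusted p under 0.05. Basal sums were 63771 to 94841 in WT and 60625 to 93068 in KO, and endothelial sums were 7129 to 8814 and 5959 to 8323. Of all 10 marker lists, the methods' t-test called 2 of 4 neutrophil markers and 0 of the others. Their part in the antigen presentation values was not tested.

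The rest of the pathway was read from a list of 60 genes, of which 55 had a probe and 50 passed the filter on dim probes. Of the 50, 33 were lower and 17 higher in KO, with a median of −0.11. The test called 5 (limma, adjusted p under 0.05), 3 lower and 2 higher, against 16.5% of all genes, and the calls were not of a single step of the pathway. Over the 18 alternative analyses Nfyc was called in 12, Calr in 9, H2-Bl in 7, Irf2 in 6 and Mr1 in 5, and no pathway gene was called without WT 2, KO 1, KO 2 or KO 3 (14 of the 50 at an unadjusted p under 0.05 with all arrays). WT 2 and WT 3 were the top arrays in 20 of the 50.

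Of 14 other class I and class I-like chains tested, 12 were lower, 1 fell and 1 rose, with a median of −0.39. H2-Bl, a class I gene of the H2 complex, read 10.63, 11.84, 11.95 and 11.14 in WT and 10.60, 10.13, 10.32 and 10.38 in KO, with no overlap. It fell by 1.04 with an SE of 0.28 (adjusted p = 0.0414), or with the replicate block at adjusted p = 0.0615. Mr1, which presents microbial vitamin metabolites to innate-like T cells, read 6.29, 6.03, 6.71 and 6.44 in WT and 7.24, 7.02, 6.74 and 6.84 in KO. It rose by 0.59 with an SE of 0.17 (adjusted p = 0.0469), with the replicate block at adjusted p = 0.0758. With normexp background correction Mr1 was at 0.21 (adjusted p = 0.341).

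The class I heavy chains are near-identical copies of each other, and a probe designed for a copy may bind transcripts of the others. The probes named H2-Q2, H2-Q10, H2-Q7, H2-K2 and H2-T23 followed the H2-D1 probe over the 8 arrays within 0.07 to 0.10 as a root mean square of centred log2 signals, closer than H2-K1 at 0.25. A like profile does not show binding to other copies, which was not tested, and no probe sequences were compared. The gene behind each of these signals is uncertain, and so is the part of these copies in the H2-K1 and H2-D1 signals.

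Among 4 chaperones and trimming enzymes of class I peptides, all 4 were lower and 1 was called. Calreticulin (Calr), the chaperone that holds class I in the loading complex and that also folds many other glycoproteins, read 14.50, 14.81, 14.89 and 13.95 in WT and 13.70, 13.67, 13.87 and 13.79 in KO. It fell by 0.78 with an SE of 0.20 (adjusted p = 0.0349). Erap1, which trims peptides to length, was at −0.25 (adjusted p = 0.104), with every WT array above every KO array. Of 5 immunoproteasome genes tested 0 were called (0 at an unadjusted p under 0.05, limma, and 0 by the methods' t-test). The catalytic subunits Psmb9 and Psmb8 were at −0.72 and −0.46 (adjusted p = 0.225 and 0.289), with WT 2 and WT 3 as their highest arrays.

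Of 8 other class II chains and processing genes tested, 4 were lower and 4 higher, and 0 were called (2 at an unadjusted p under 0.05, limma, and 0 by the methods' t-test). H2-DMa, part of the exchanger that removes the invariant chain remnant, read 8.81, 9.20, 9.21 and 8.99 in WT and 8.81, 8.73, 8.35 and 8.54 in KO, a difference of −0.44 with an SE of 0.14 (adjusted p = 0.0634). Ctsl, a lysosomal protease that degrades the invariant chain, was at 0.85 with an SE of 0.33 (adjusted p = 0.102) and was called with the replicate block (adjusted p = 0.0188). The costimulatory genes Cd86 and Cd40 were at −0.29 and −0.21 (adjusted p = 0.303 and 0.53).

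Of 17 regulators 7 were lower and 10 higher, with a median of 0.10, and 2 were called in opposite directions. Nfyc, a subunit of the NF-Y factor that binds the Y box printed above, read 8.42, 8.59, 8.52 and 8.58 in WT and 7.84, 7.92, 7.91 and 8.28 in KO, with no overlap. It fell by 0.54 with an SE of 0.12 (adjusted p = 0.0236). The other NF-Y subunits and Creb1, an X2 box protein, fell outside the naming rule and are given after their values were seen. Nfyb was at 0.34 (adjusted p = 0.0527) and Creb1 at 0.32 (adjusted p = 0.0572), both with every KO array above every WT array, and Nfya was at 0.06 (adjusted p = 0.875). The methods' t-test called Nfyb and Creb1 beside Nfyc. Irf2, a member of the interferon regulatory factor family that competes with Irf1 for its sites, read 9.47, 9.01, 9.15 and 9.07 in WT and 9.56, 9.68, 9.73 and 9.50 in KO. It rose by 0.44 with an SE of 0.13 (adjusted p = 0.0464), with the replicate block at adjusted p = 0.0637. The coactivators Ciita and Nlrc5 fell outside the rule for named genes and are given for their role, after their values were seen: they were at −0.57 (adjusted p = 0.0839) and −0.48 (adjusted p = 0.518).

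**Figure D4:**
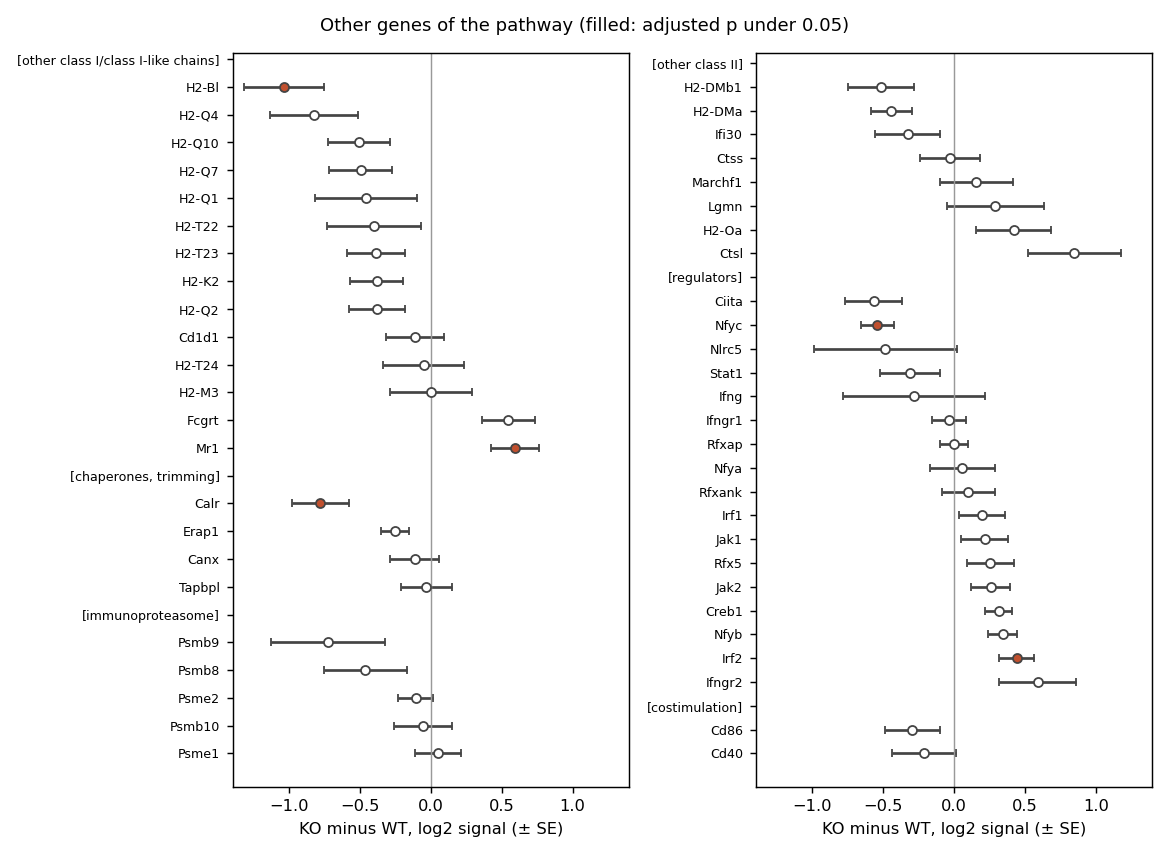
KO minus WT difference in log2 signal (± SE, n = 4 arrays a genotype) of the 50 pathway genes tested, under the heading of each list in brackets. Filled points passed an adjusted p of 0.05: H2-Bl, Calr and Nfyc to the left of 0 and Mr1 and Irf2 to the right.

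Over all genes tested other than the members, the patterns most like the class I mean were those of Thada, H2-Q7 and H2-Q10, which departed from it by 0.08, 0.10 and 0.10 as a root mean square of centred log2 signals over the 8 arrays. Thada, whose signal was low, read 5.14, 5.80, 5.91 and 5.13 in WT and 5.26, 4.90, 4.81 and 4.82 in KO. The patterns most like the class II mean were those of Rhoh, Fermt3 and Taf15, at 0.11, 0.12 and 0.12. Rhoh and Fermt3 are expressed in blood cells, and Rhoh read 5.92, 6.58, 6.49 and 5.85 in WT and 6.37, 6.19, 6.02 and 5.54 in KO. None of the 6 passed the test between genotypes (adjusted p from 0.102 to 0.606).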

How the data were processed

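RNA of mammary glands from 4 WT and 4 KO mice at lactation day 1 was hybridised to 1-colour Agilent mouse 4 × 44 K arrays. Per the labels, scanning used Agilent Feature Extraction 10.7. The authors deposited its processed signal intensity per spot, background-subtracted within each array, and a table of log2 values quantile-normalized in GeneSpring, used as an alternative. Its columns had a median of 6.32 and followed the scanner values of their own array at r of 0.9985 or more.

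With limma 3.58.1 (R 4.3.3), log2 processed intensities were quantile-normalized, as in the methods of the study. The software's outlier spots, 64 to 100 on an array, were dropped before spots of a probe were averaged. Symbols came from probe accessions through a RefSeq table of GRCm38.p6 (26728 of 27094 NM accessions matched, 27479 probes in all). The array design is of another build, so no gene coordinates from it are given. Probes had to be well above background on the 4 arrays of either genotype, and the brightest probe stood for a gene. Another 67 matched probes lacked a value on an array and were left out. The 14137 genes, and in a separate fit the 27654 probes, were tested with lmFit and eBayes, two-sided, with Benjamini-Hochberg adjustment over all of them, and called at an adjusted p under 0.05. The script was tested on simulated data. Where a genotype had no array well above background, the fold is a lower limit: each dim array took the larger of its own signal and the dimmest signal that was still well above background on it. For arrays, depth is not defined and the number of arrays limits the precision.

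Samples with the same replicate number deviated together from their genotype means (r = 0.22, 0.16, 0.30 and 0.28 for numbers 1 to 4). The numbers were taken to pair the arrays from these r alone, since the labels name no pairs. The mean of the other pairs was −0.08, but centring on the genotype means largely fixes it once the 4 r are known. It is therefore no separate support for the pairing. Named were all members and their probes, pathway genes with an adjusted p under 0.05 and otherwise the 2 smallest p of each list, markers called and the 2 brightest of each list (1 of them is not reported here), Zbtb7b, and the 3 genes closest to each class mean. Members and lists were chosen with earlier results of these data known. Alternatives were 75th percentile scaling, normexp background with an offset of 50 (on median signals in place of the mean signals planned), no filter, the mean of a gene's probes, the authors' table, the methods' t-test, a replicate block, unmatched probes kept, and each array left out. A block for position on the slide and outlier spots kept were added after seeing the data.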

Additional observations from a re-analysis of the deposited data

Results flagged for a closer look

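In 98 groups of 4 arrays (49 named genes, each genotype apart), 5 held an array set far from the other 3 by Dixon's test, about the number chance gives at 1 in 20. Tap2 was the only member among them, with 10.18 on KO 4 against 9.07 to 9.13 on the other KO arrays. Fabp4 read 16.80 on WT 2 against 17.23 to 17.25 on the other WT arrays. Krt18 read 16.58 on KO 4 against 16.99 to 17.02, and Wap read 18.44 on KO 2 against 18.48 on each of the others. Ngp read 3.78 on WT 2 against 1.93 to 2.21, all of them signals not well above background.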

How the results depend on the processing

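In 18 alternative analyses, 8 of which left out an array, the differences of the 9 members stayed below 0 in 162 of 162 values, and 3 of these passed the threshold. The member genes called numbered 0 in the 10 alternatives that kept all arrays and 0 to 2 with an array left out, while the member probes (2) became 0 with no filter, the position block, the replicate block or the methods' t-test, and 0 to 6 with an array left out. The pathway genes called (5) became 1 with no filter, 0 with the position block and 3 with the methods' t-test (Nfyc kept, Creb1 and Nfyb gained, and Calr, H2-Bl, Irf2 and Mr1 lost), and ranged from 0 to 9 with an array left out, 0 without KO 1, KO 2, KO 3 or WT 2 and 9 without WT 1. Over all genes the 2331 calls became 1389 with the methods' t-test and 137 with the position block, and 515 to 3070 with an array left out. The cause was not tested. With the replicate block, H2-Bl, Mr1 and Irf2 lost their calls while Ctsl and H2-Oa gained one (4 pathway genes called), and no other call of a member, pathway gene or Zbtb7b changed. The 75th percentile scaling moved the median of all genes by −0.03. Slide as a block was not run, since each slide holds 1 genotype, and the probe counts have no value for the mean of a gene's probes or for unmatched probes kept. With 4 arrays a genotype, the intervals of the member genes span 0.79 to 1.46 on the log2 scale. All but those of H2-K1 and Tapbp include 0, and no member passed after adjustment. Differences of the sizes seen in these genes could therefore not be told from 0.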
